A study of Mus musculus with 14 samples.

Results

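The 45 genes described here mark vascular endothelium and the subtypes of its vessels. They were listed by name, with earlier results of these data known. Each of the 45 was found by its symbol among the 55335 genes of the count table. They were ordered by role into 20 surface, junction and signalling genes of endothelium in general, 5 receptor tyrosine kinases of vessels, 5 transcription factors, 8 genes of sinusoidal, venous or lymphatic vessels, and 7 genes of arteries and sprouting tip cells. Of the 45, 24 are also known from other marrow cells, such as stem and progenitor cells, megakaryocytes, macrophages, erythroid progenitors or stromal cells, and 21 were taken as mainly endothelial within the marrow.

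RNA was measured in mouse bone marrow cells sorted as negative for lineage markers and CD45 and positive for the red fluorescent protein TdTomato. Every group came from Cdh5 Cre Rosa26 TdTomato mice, an endothelial reporter in which Cre recombinase driven by the promoter of Cdh5 (VE-cadherin) switches on TdTomato for good. The 14 libraries comprised 4 from untreated mice, 5 from mice given 500 cGy of total body irradiation (TBI) from a caesium source, 3 from mice given 20 µCi of radioimmunotherapy on a non-targeting IgG (IgG RIT) and 2 from mice given 20 µCi of radioimmunotherapy on an antibody to CD45 (CD45 RIT). Treated cells were harvested 8 days after treatment, and the series title names astatine-211, an alpha emitter, as the radionuclide of the CD45-targeted treatment.

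The reporter sets a limit on what the sorted cells are. The Cdh5 promoter is active in the haemogenic endothelium of the embryo, from which blood cells arise, so a Cre that is active throughout life also marks blood cells, and the labels do not say whether this Cre was inducible. Age, strain and sex of the mice, and whether each library came from a separate mouse, are likewise not given in the sources used here, so p-values measure the spread between these libraries, which may in part be technical. The estimate of spread is shared by all 14 libraries, so p-values for CD45 RIT do not measure the spread of its 2 libraries alone. Comparisons with untreated cells share the same 4 untreated libraries.

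Endothelial cells line all vessels and hold together through adherens and tight junctions built on VE-cadherin and claudin-5. They sense growth factors through the VEGF receptors Kdr, Flt1 and Flt4 and the angiopoietin receptor Tek, to which Tie1 is related. Their identity depends on transcription factors of the ETS and SOX families. In the marrow, arterial vessels lead into a wide network of sinusoids, which are leaky, scavenge waste through the stabilin receptors, and support blood stem cells.

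Library totals ranged from 16412779 counts in TBI replicate 6 to 31077588 in untreated replicate 1, and a count of 3, used as the floor of detection, was worth 0.0786 to 0.215 CPM (the count normalised to depth, on library sizes scaled by the trimmed mean of M-values, TMM). Floors and counting intervals cover counting error only. Pairwise correlations of log expression within a group ran from 0.906 to 0.979 in the untreated, TBI and IgG RIT groups, while the 2 CD45 RIT libraries correlated at 0.673 with each other. CD45 RIT replicate 2 had the fewest genes detected, 17700. TBI replicate 6 had the lowest total, and its library number in the labels lay with those of the RIT libraries, numbered 10 and above, whereas the untreated and other TBI libraries were numbered under 10. The meaning of these numbers is not given in the sources used here, and a batch that followed them cannot be told apart from the RIT treatments.

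The gene that drives the reporter, Cdh5 (chr8:104101625-104144511 on the GRCm38 build), was close to the floor in every library. It had 4, 0, 2 and 6 counts in untreated replicates 1 to 4, 3, 5, 0, 0 and 0 counts in TBI replicates 1, 3, 4, 5 and 6, and 0 counts in all 5 RIT libraries. Its highest level was 0.208 CPM, in untreated replicate 4. The defining endothelial gene was therefore near absent from the RNA of cells sorted by a reporter under its promoter, so the label of endothelial cells was not borne out by VE-cadherin in any group.

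Several other genes that define vessels were equally scarce. Cldn5 (claudin-5, the tight junction protein), Sox17 and Sox7 (transcription factors of endothelium, Sox17 mainly in arteries) and Lyve1 (a hyaluronan receptor of lymphatic and sinusoidal vessels) were at 3 counts or fewer in all 14 libraries. Of these, Sox7 was at 0 in all 14, and Cldn5 reached 2 counts in TBI replicate 1, IgG RIT replicate 2 and CD45 RIT replicate 2 and 1 count in untreated replicate 1. Sox17 had 1 count, in untreated replicate 3, and Lyve1 had 1 count, in TBI replicate 6. Flt1, the decoy VEGF receptor, never exceeded 4 counts.

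At the other end, 8 genes were above 3 counts in every library: Pecam1, Eng, Stab1, Plvap, Egfl7, Ephb4, Adgrf5 and Cd93. In the untreated group 8 genes were at 3 counts or fewer in every library (Flt1, Cldn5, Sox17, Sox7, Lyve1, Mmrn2, Dll4 and Aplnr) and 21 genes were above 3 counts in every library. In the TBI libraries these numbers were 7 and 21. In IgG RIT 17 genes were at or under the floor throughout and 15 above it throughout, and in CD45 RIT 17 and 13. The 13 genes at 0 in both CD45 RIT libraries were Cdh5, Tek, Tie1, Emcn, Sox17, Sox7, Stab2, Lyve1, Dll4, Sele, Icam2, Ecscr and Adgrl4.

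**Figure D1:**
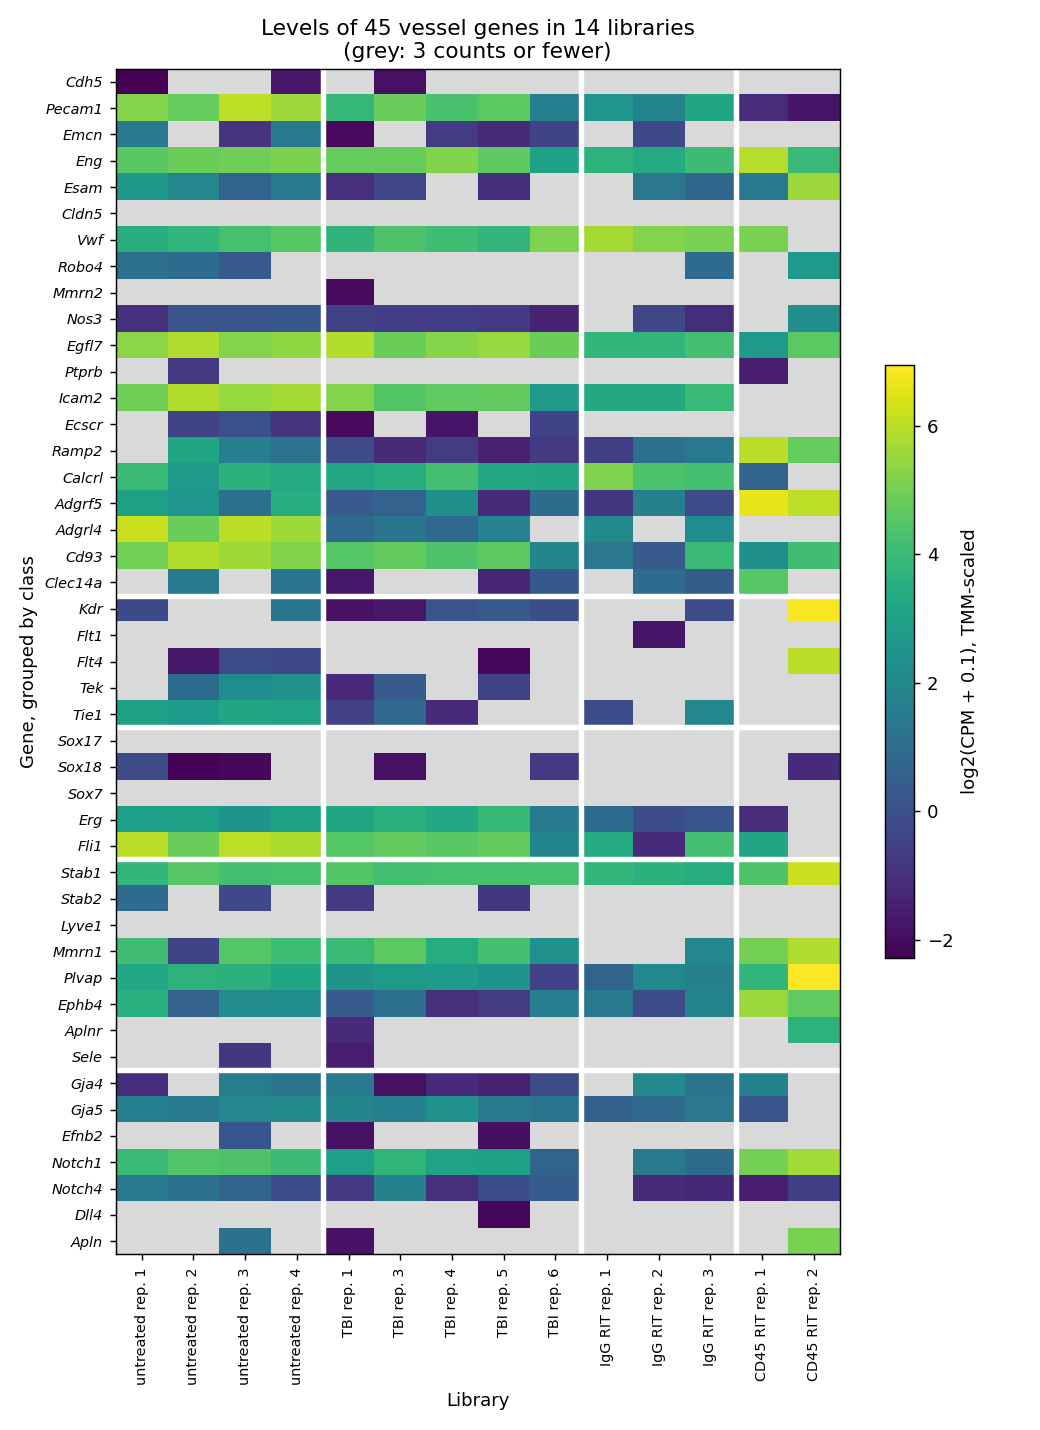
Level of each of the 45 genes (rows, grouped by role) in each of the 14 libraries (columns, grouped by treatment), as log2 of CPM plus 0.1, with grey for 3 counts or fewer. Cdh5, Cldn5, Sox17, Sox7 and Lyve1 are grey in most or all columns, and the 2 CD45 RIT columns differ from each other in genes such as Kdr, Flt4, Vwf and Fli1.

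Compared per length, as CPM per kilobase of exon, the highest of the 45 genes in untreated cells were Icam2, an adhesion molecule of endothelium and platelets, at 24.5 ± 6.12 (SD, n = 4), the ETS factor Fli1 at 15.2 ± 4.82 and Egfl7, a secreted protein of the vessel wall, at 12.3 ± 2.55. Adgrl4, an orphan adhesion receptor of endothelium, followed at 9.40 ± 3.39, and Eng (endoglin, a co-receptor for TGF-beta) and Pecam1 (CD31, a junction protein) at 7.30 ± 1.12 and 7.12 ± 2.65. The mean ± SD ranges of neighbours in this order overlapped. After TBI the highest were Icam2 at 12.4 ± 5.82 CPM per kilobase (n = 5) and Egfl7 at 11.3 ± 3.55. In CD45 RIT cells the order per length was led by Plvap, the diaphragm protein of fenestrated and sinusoidal vessels, at 34.4 ± 39.0 (n = 2), with Ramp2, a partner of the adrenomedullin receptor, at 13.8 ± 7.92. With an SD larger than its mean, the place of Plvap rests on CD45 RIT replicate 2.

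Summed over the 45 genes, the level was 549 ± 46 CPM of the total count in untreated cells, 281 ± 91.7 after TBI, 138 ± 20.7 after IgG RIT and 456 ± 192 after CD45 RIT (320 in replicate 1 and 592 in replicate 2). The place of CD45 RIT depends on scaling: on the TMM-scaled library sizes used for single genes the sums were 458 ± 39.6, 250 ± 60.9, 166 ± 28.3 and 609 ± 218 CPM in the same order, so that CD45 RIT (455 and 764) had a mean above untreated cells (416 to 507) and not below them. On the total count the TBI libraries ran from 290 to 336 except for replicate 6, at 120. Over the 21 mainly endothelial genes alone the sums were smaller, 35.1 ± 3.1 CPM in untreated cells, 16.6 ± 4.91 after TBI and 9.05 ± 5.64 after IgG RIT, and in the 2 CD45 RIT libraries they were 98.1 and 298. Of the 21 genes, 14 and 13 were at 3 counts or fewer in those 2 libraries, against 10 to 11 in untreated libraries. The numbers were 8 to 13 in TBI and 13 to 18 in IgG RIT libraries. Among the 21, Adgrf5 led the sum in CD45 RIT replicate 1, and Plvap and Kdr led it in replicate 2. In bulk samples such as these, fewer cells of a type and less RNA per cell cannot be told apart.

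Markers of other cells of the marrow moved with the treatments as well, and their part in the levels of the 45 genes was not tested. Summed over 6 stem and progenitor markers, the level was 692 to 977 CPM in untreated libraries, 28 to 168 after TBI, 31.2 to 48.0 after IgG RIT and 17.2 to 40.8 after CD45 RIT, with Cd34 and Gata2 at 0 in both CD45 RIT libraries. The 5 white blood cell markers, Ptprc (CD45 itself) among them, summed to 1230 to 1540 CPM in untreated libraries and to 93.0 to 801, 96.0 to 197 and 57.4 to 95.2 CPM in TBI, IgG RIT and CD45 RIT. The 8 neutrophil markers summed to 9710 to 12100, 79.3 to 1140, 553 to 744 and 5.23 to 14.5 CPM in the 4 groups. Megakaryocyte markers were at 301 to 343, 47.5 to 88.5, 66.4 to 110 and 105 to 208 CPM in the 4 groups in the same order. Of these 6 markers, 3 were above 3 counts in both CD45 RIT libraries, against 5 in every library of each other group. Gp1bb was at 0 in all TBI and CD45 RIT libraries.

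Red cell and stromal markers ran in other orders. Erythroid markers (globins and other red cell genes) summed to 7180 to 12700 CPM in untreated libraries, 21400 to 150000 after TBI with the highest in replicate 6, 119000 to 122000 after IgG RIT and 43200 to 176000 after CD45 RIT. Stromal markers summed to 2980 to 7700, 880 to 2130, 308 to 1080 and 32200 to 50900 CPM in the 4 groups. Macrophage markers reached 2330 to 2510 CPM in CD45 RIT against 145 to 197 in untreated libraries. TBI and IgG RIT libraries were at 22.9 to 40.0 and 24.4 to 53.4. Vcam1, which stromal cells also make, was set aside after its values were seen. Without it CD45 RIT was at 38.3 to 125 CPM against 69.7 to 81.2 in untreated libraries. TBI and IgG RIT were then at 9.99 to 17.7 and 7.37 to 16.8. Adgre1 (F4/80) was at 0 in all IgG RIT and CD45 RIT libraries. In each CD45 RIT library 4 of the 6 markers left were above 3 counts.

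**Figure D2:**
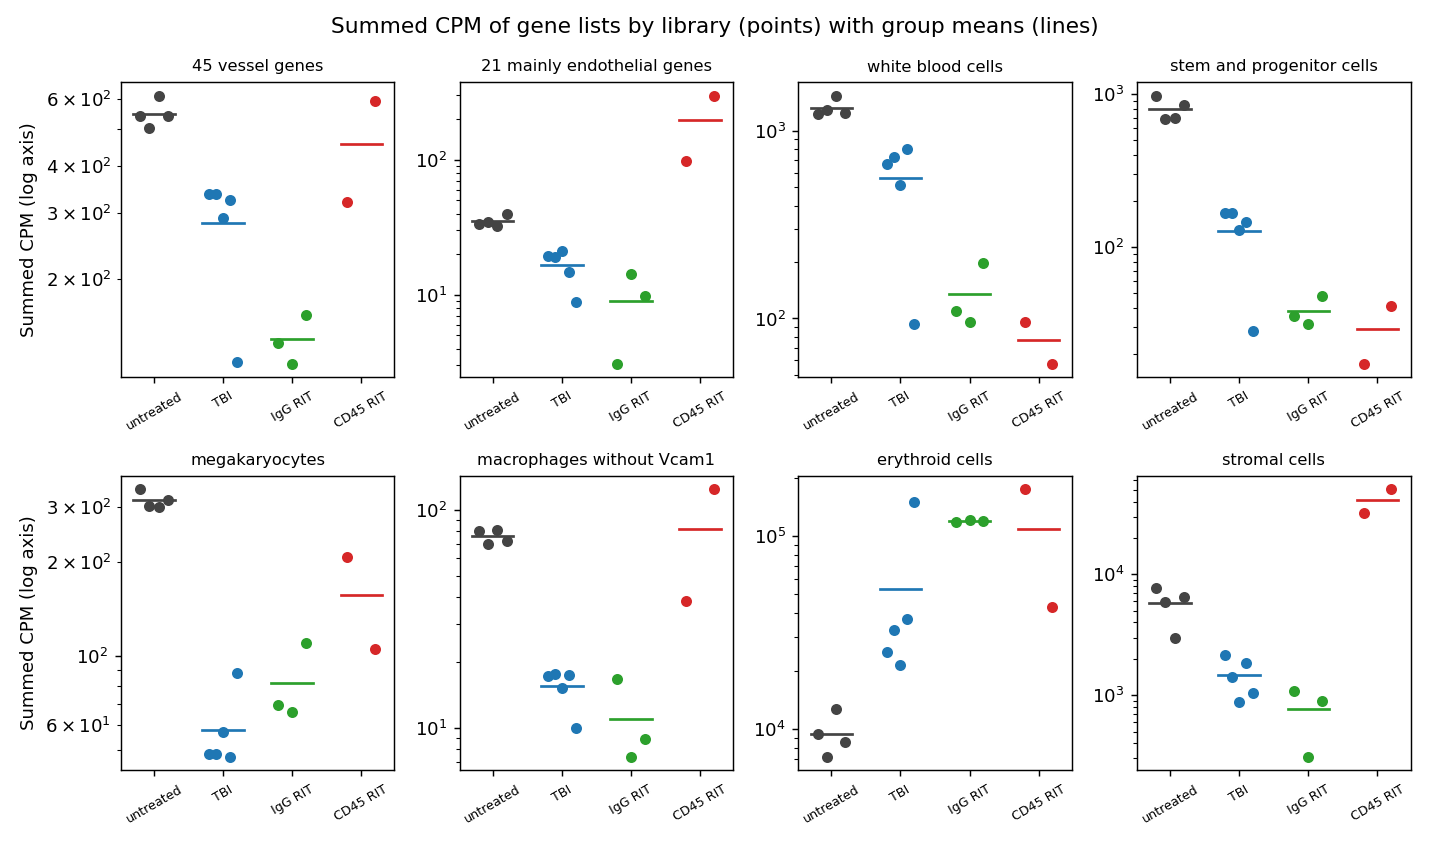
Summed CPM per library (log axis; 1 point per library, coloured by group, with a line at the group mean) of the 45 genes, of the 21 mainly endothelial genes and of 6 marker lists of other marrow cells. Stem and progenitor and white blood cell markers are low in the RIT libraries and in TBI replicate 6, stromal markers are highest in the 2 CD45 RIT libraries, and TBI replicate 6 stands below the other TBI libraries in the sum of the 45 genes.

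Differences between groups were tested gene by gene with edgeR's quasi-likelihood test on 21509 genes, and genes with a Benjamini-Hochberg adjusted p under 0.05 over all of them are called higher or lower. Of the 45 genes, 34 passed the filter on low counts. The other 11 (Cdh5, Cldn5, Dll4, Efnb2, Flt1, Lyve1, Mmrn2, Ptprb, Sele, Sox17 and Sox7) were too low to be tested.

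After TBI, 1 of the 34 tested genes was called, lower, and 9 had an unadjusted p under 0.05. This share, 2.94%, stood against 4.31% of all tested genes called in either direction (0.921% higher and 3.38% lower). The median log2 fold change was −1.21 over the 34 genes and −0.16 over all tested genes. Without TBI replicate 6, which stands apart, 1 gene was again called. In a fit of only the 8 libraries numbered under 10, 1 gene was called higher and 8 lower. Calls over all genes rose in that fit as well, as given further below, so the rise was not particular to these genes.

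After IgG RIT, 6 of the 34 genes were called, all lower, a share of 17.6% against 16.4% of all tested genes (5.75% higher and 10.7% lower). The median log2 fold change was −2.04, or −1.90 with genes at 0 in a group set to their bound, and −0.42 over all genes. The count fell to 2 without IgG RIT replicate 1, to 1 without IgG RIT replicate 2, and to 3 without untreated replicate 2 or untreated replicate 4. Calls over all genes also fell on leaving out 1 library, from 3536 to between 1769 and 2535. The fall was thus not particular to these genes.

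After CD45 RIT the changes went both ways. Fewer of the 34 genes, and fewer of all genes, were called when only the 2 groups compared were fitted, as given further below. Against untreated cells 8 genes were higher and 7 lower, 44.1% of the 34, against 33.1% of all tested genes (14.5% higher and 18.6% lower), with a median log2 fold change of 0.14 over the 34 and −0.37 over all genes. The split depends on scaling: with no scaling factors 3 were higher and 8 lower, and over all genes 1796 higher and 6107 lower in place of 3115 and 4001. Against IgG RIT 12 genes were higher and 6 lower, 52.9% against 37.7% of all tested genes (20.2% higher and 17.5% lower), with a median of 1.15 over the 34, or 1.94 with bounds and without the 3 genes at the floor in both groups, and −0.13 over all genes. That count of 18 fell to 9 without IgG RIT replicate 1 and to 12 without IgG RIT replicate 2. It fell as well without CD45 RIT replicate 2, a fit that leaves 1 library in that group. Calls over all genes also moved on leaving out 1 library, over a range given further below.

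By role, calls after CD45 RIT against untreated cells went up in some lists and down in others, where 14.5% of all tested genes were higher and 18.6% lower. Of the 16 tested surface and junction genes 2 were higher and 5 lower than in untreated cells, of the 4 receptor kinases 2 higher and 1 lower, and of the 3 transcription factors 1 lower. Of the 6 sinusoidal, venous and lymphatic genes 4 were higher and 0 lower. With no scaling factors Aplnr alone of these 4 was called (adjusted p = 0.014), with Plvap, Stab1 and Ephb4 at 0.0804, 0.241 and 0.0816. The values of Plvap, Stab1 and Aplnr rest on CD45 RIT replicate 2. Aplnr also passed the filter on low counts only through that library and TBI replicate 1, so its call is no independent support. The adjusted p of Ephb4 was 0.0899 without CD45 RIT replicate 1. Of the 5 arterial and tip cell genes edgeR called 0, with an unadjusted p under 0.05 for 1 of them and 1, Gja5, called lower by DESeq2. DESeq2 also called Fli1 (log2 fold change −3.47, adjusted p = 0.0299), Tek and Emcn lower and Esam higher. After IgG RIT the 6 lower genes were 3 surface and junction genes, 1 transcription factor and 2 arterial genes.

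**Figure D3:**
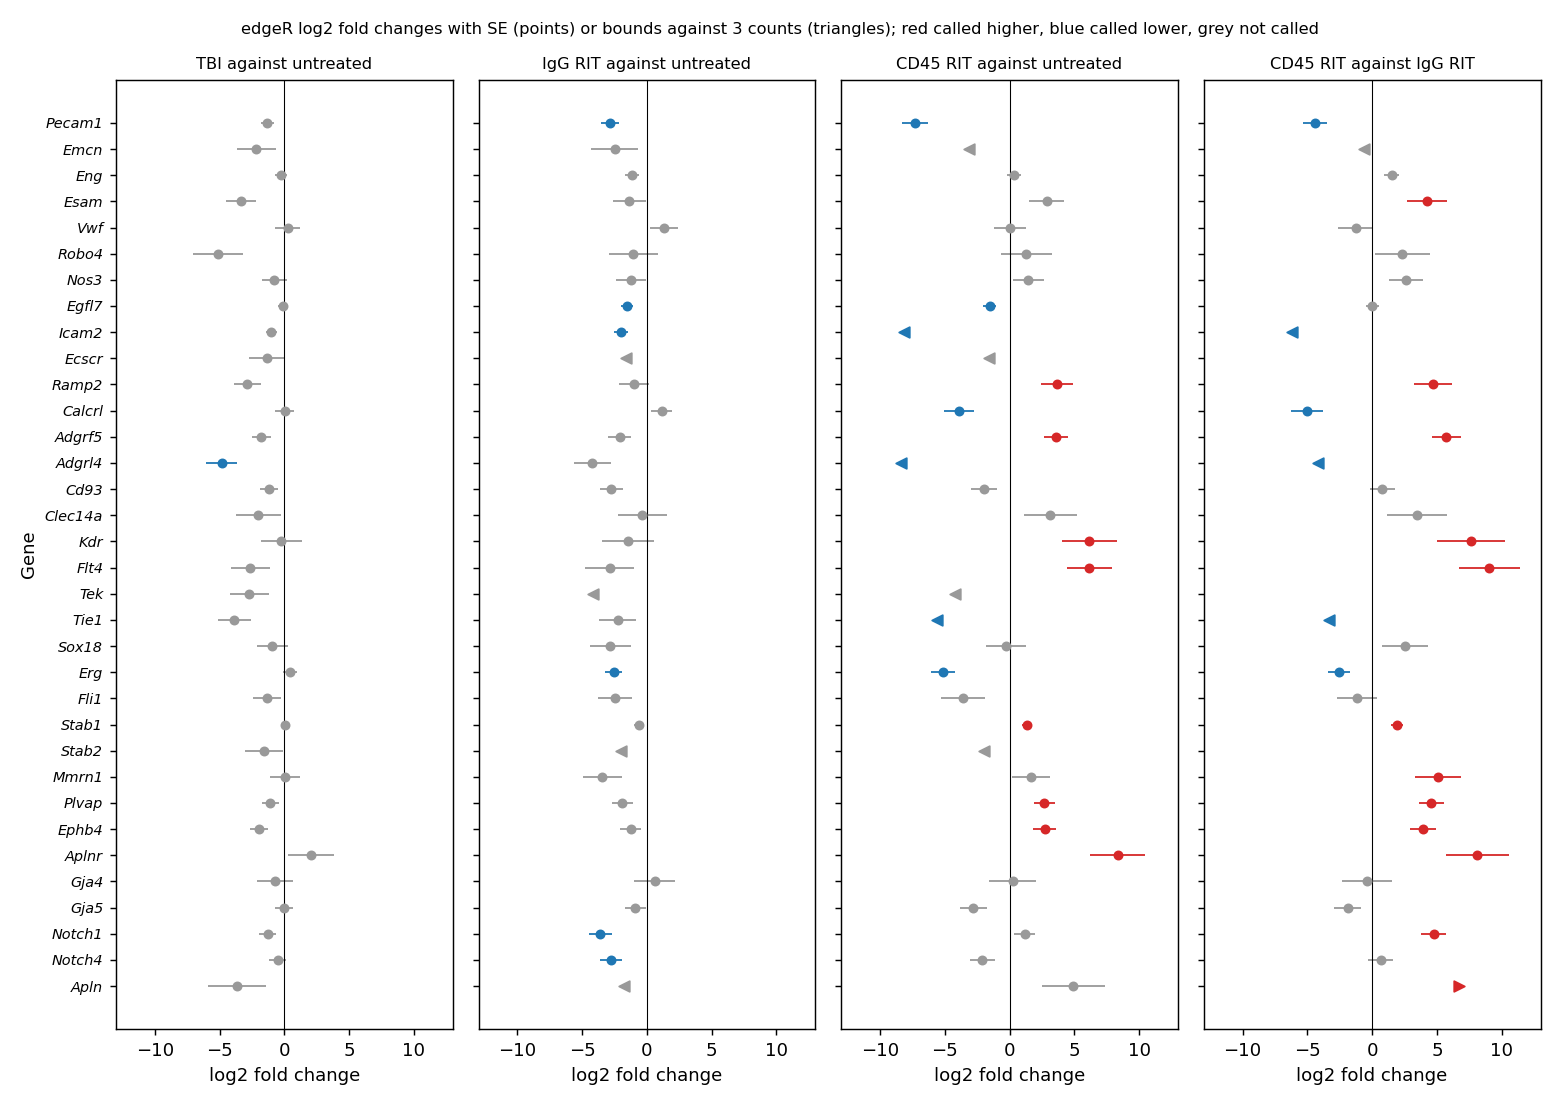
Log2 fold change ± SE of the 34 tested genes in the 4 comparisons, with genes called higher in red, called lower in blue and others in grey. Triangles mark genes at 0 in every library of a group, drawn at the bound that a count of 3 allows, and genes at the floor in both groups are left out. Most points lie left of 0 after TBI and IgG RIT, and points lie on both sides after CD45 RIT.

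Among the surface and junction genes, Pecam1 (chr11:106654217-106750628) was lower in both RIT groups. It measured 37.0, 26.8, 65.3 and 48.2 CPM in untreated replicates 1 to 4, and 14.4, 28.4, 19.5, 24.4 and 3.16 CPM in TBI replicates 1, 3, 4, 5 and 6. In IgG RIT it measured 5.73, 3.59 and 8.99 CPM, and in CD45 RIT 0.366 and 0.192 CPM, which were 6 and 4 counts. Untreated and TBI libraries overlapped, through TBI replicate 3, and both RIT groups lay below all untreated libraries. The log2 fold change was −1.30 (SE 0.52, adjusted p = 0.202) after TBI, −2.86 (SE 0.67, adjusted p = 0.014) after IgG RIT and −7.30 (SE 1.03, adjusted p = 3.04e-04) after CD45 RIT. The IgG RIT call was lost without IgG RIT replicate 1 (adjusted p = 0.0571) or IgG RIT replicate 2 (0.0611). CD45 RIT was also below IgG RIT, by −4.44 (SE 0.92, adjusted p = 0.00286). Pecam1 is also made by stem cells, platelets and macrophages.

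The adhesion gene Icam2 (chr11:106377656-106388075) had the same order of groups. Its levels were 31, 58.5, 45.9 and 51.3 CPM in untreated libraries, 37.0, 22.1, 25.9, 26.4 and 6.39 in TBI, 9.85, 9.91 and 15.5 in IgG RIT, and 0 counts in both CD45 RIT libraries. It was lower after IgG RIT (log2 fold change −1.99, SE 0.52, adjusted p = 0.0246), a call lost without untreated replicate 2 or 4 or IgG RIT replicate 1 or 2 (adjusted p 0.0537 to 0.0896). After CD45 RIT its level was lower by a factor of at least 285 against untreated cells (adjusted p = 2.55e-05) and of at least 71.8 against IgG RIT (adjusted p = 5.36e-05), taking 3 counts per library as the bound. Both CD45 RIT calls held in every fit that left out 1 library.

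Adgrl4 (chr3:151437887-151545086) gave the single edgeR call after TBI. DESeq2 called Tie1, Esam and Ramp2 lower there too (adjusted p = 0.0282, 0.0318 and 0.0453). Adgrl4 measured 74.1, 29.4, 62.7 and 48.1 CPM in untreated libraries and 1.73, 2.42, 1.72, 3.42 and 0 CPM in TBI libraries, with no overlap. IgG RIT libraries were at 4.23, 0 and 4.52 CPM and both CD45 RIT libraries at 0 counts. The log2 fold change after TBI was −4.83 (SE 1.19, adjusted p = 0.0442), and leaving out any 1 of untreated replicates 1 to 4 or TBI replicates 1, 3, 4 or 5 raised the adjusted p to 0.0874 to 0.106. After IgG RIT the adjusted p was 0.0672 by edgeR and 0.012 by DESeq2, which called Adgrl4 lower. In CD45 RIT its level was lower by a factor of at least 328 against untreated cells (adjusted p = 0.00625) and of at least 17.8 against IgG RIT (adjusted p = 0.0285), the latter a call lost without IgG RIT replicate 1 or 3 or CD45 RIT replicate 1 or 2 (adjusted p 0.0517 to 0.0848). Adgrl4 is known in blood stem and progenitor cells as well, whose marker sums were also lower in those groups, as given above, and the part of those cells was not tested.

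Not all surface genes went down. Adgrf5 (chr17:43360451-43459557), an adhesion receptor of lung and other capillaries, measured 7.70, 5.63, 2.00 and 10.9 CPM in untreated libraries, 1.20, 1.42, 4.68, 0.339 and 1.87 in TBI, and 0.463, 3.34 and 0.788 in IgG RIT. In CD45 RIT it stood at 97.4 and 64.5 CPM, above the other 12 libraries in both replicates. Its log2 fold change was 3.62 against untreated cells (SE 0.92, adjusted p = 0.0104) and 5.72 against IgG RIT (SE 1.11, adjusted p = 0.00192), and both calls held in every fit that left out 1 library. Adgrf5 was taken as mainly endothelial.

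Calcrl and Ramp2, receptor and partner for adrenomedullin, moved apart. Calcrl measured 15.6, 6.67, 12.2 and 10.2 CPM in untreated libraries, 9.45, 10.9, 18.1, 9.56 and 8.76 in TBI, 35.3, 20.2 and 18.1 in IgG RIT, and 1.52 and 0 CPM in CD45 RIT. Ramp2 measured 0, 8.89, 3.04 and 2.25 CPM in untreated libraries, 0.271 to 0.779 in TBI, 0.579, 2.09 and 2.63 in IgG RIT, and 64.0 and 27 CPM in CD45 RIT. Both genes thus had CD45 RIT libraries outside the range of the untreated ones, on opposite sides. Calcrl was lower in CD45 RIT than in untreated cells (log2 fold change −3.89, SE 1.14, adjusted p = 0.0212) and than in IgG RIT (−5.02, SE 1.23, adjusted p = 0.0073). Without CD45 RIT replicate 2 these were −2.83 and −4.15 (adjusted p = 0.00648 and 8.8e-04), and without CD45 RIT replicate 1 they were −11.14 and −12.28, with the remaining library at 0 counts. Ramp2 was higher than in untreated cells (3.68, SE 1.25, adjusted p = 0.039) and than in IgG RIT (4.68, SE 1.45, adjusted p = 0.0236). The Ramp2 calls were lost without untreated replicate 3 or 4 or CD45 RIT replicate 1 (adjusted p 0.084 to 0.0912), and without any IgG RIT replicate (0.0506 to 0.0728). Ramp2 shares 1103 bases, 33.4% of its exons, with Vps25 on the same strand, so its counts are uncertain.

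Egfl7 (chr2:26580014-26593120) measured 39.9, 57.4, 37.0 and 42.2 CPM in untreated libraries and 59.3, 29.2, 38.7, 45.7 and 28.9 in TBI. IgG RIT was at 14, 13.6 and 17.9 and CD45 RIT at 6.34 and 24.4 CPM, all below the untreated libraries. It was lower after IgG RIT (log2 fold change −1.54, SE 0.43, adjusted p = 0.0302) and after CD45 RIT (−1.52, SE 0.50, adjusted p = 0.0352). The first call was lost on leaving out any IgG RIT replicate or untreated replicate 1, 2 or 4 (adjusted p 0.0502 to 0.101), and the second without untreated replicate 2 or 4 or CD45 RIT replicate 1 (0.0552 to 0.103). Emcn (endomucin, a surface sialomucin of venous and sinusoidal endothelium) was sparse: 108, 0, 13 and 73 counts in untreated libraries, 4, 0, 11, 10 and 9 in TBI, 0, 15 and 0 in IgG RIT, and 0 in both CD45 RIT libraries, with no edgeR call in any comparison.

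Promoters of Emcn and 2 promoters of Egfl7 are shown because they carry letters of an ETS motif, the binding motif of the family of Erg and Fli1, and that of Kdr because its counts set the CD45 RIT libraries apart, with 1 in replicate 1 and 2390 in replicate 2. They were picked after the values were seen. Each is the 250 bases before a gene start in the RefSeq table (GRCm38.p6), 5′ to 3′ on the gene's strand, with the letters ACAGGAAG or their reverse complement CTTCCTGT in capitals.
Egfl7, upstream start, chr2:26580833-26581082, plus strand: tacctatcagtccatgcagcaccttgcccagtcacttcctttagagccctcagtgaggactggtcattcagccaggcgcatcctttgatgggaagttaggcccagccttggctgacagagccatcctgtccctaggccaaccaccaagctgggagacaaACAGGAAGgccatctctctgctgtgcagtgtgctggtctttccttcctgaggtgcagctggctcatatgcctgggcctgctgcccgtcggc
Egfl7, downstream start, chr2:26583615-26583864, plus strand: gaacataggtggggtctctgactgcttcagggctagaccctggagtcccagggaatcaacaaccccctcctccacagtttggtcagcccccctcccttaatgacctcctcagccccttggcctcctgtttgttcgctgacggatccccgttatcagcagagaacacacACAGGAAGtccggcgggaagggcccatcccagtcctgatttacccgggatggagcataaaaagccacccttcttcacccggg
Emcn, chr3:137340828-137341077, plus strand: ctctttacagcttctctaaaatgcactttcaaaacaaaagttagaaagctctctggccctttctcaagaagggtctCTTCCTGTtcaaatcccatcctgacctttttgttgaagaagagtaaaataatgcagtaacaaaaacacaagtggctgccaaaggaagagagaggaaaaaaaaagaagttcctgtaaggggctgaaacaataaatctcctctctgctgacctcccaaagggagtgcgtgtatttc
Kdr, chr5:75978456-75978705, minus strand: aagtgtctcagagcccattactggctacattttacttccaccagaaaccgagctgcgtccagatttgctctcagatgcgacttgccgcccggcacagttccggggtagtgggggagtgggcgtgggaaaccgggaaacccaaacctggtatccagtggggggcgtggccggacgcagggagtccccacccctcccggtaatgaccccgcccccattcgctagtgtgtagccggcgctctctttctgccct

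Promoters for 27 of the 45 genes, 32 in all since some genes have several starts, were found in that table of 32851 promoters. ACAGGAAG, searched on both strands, was present in 5 of the 32 (15.6%: Calcrl, Emcn, Sele and the 2 Egfl7 promoters shown, of the 3 that Egfl7 has in the table) and in 952 of all promoters (2.9%). A second ETS motif, CCGGAAGT, was in 0 of the 32 and in 2.88% of all, and the SOX motif ACAATG was in 4 (12.5%: Calcrl, Erg, Mmrn1 and Notch4) against 10.7%. The Egfl7 promoter not shown lies downstream of the 2 shown and had no match to either ETS motif. The 2 ETS motifs share the letters GGAAG. The matches describe these windows only and were not tied to the levels.

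Vwf (von Willebrand factor, made by endothelium and megakaryocytes; chr6:125546774-125686679) did not follow Pecam1. It measured 11.3, 13.6, 18.9 and 23.1 CPM in untreated libraries, 13.2, 20.3, 17.4, 13.8 and 35.8 in TBI, 51.4, 37.7 and 33.7 in IgG RIT and 33.8 and 0 CPM in CD45 RIT. The IgG RIT libraries were all above the untreated ones, but Vwf was not called in any of the 4 comparisons, and the 2 CD45 RIT libraries held 555 and 0 counts. Esam, a junction protein of endothelium and platelets, was called in 1 comparison: it measured 2.68 and 48.3 CPM in CD45 RIT against 0, 2.49 and 1.63 in IgG RIT (log2 fold change 4.21, SE 1.55, adjusted p = 0.0492). Without CD45 RIT replicate 2 its log2 fold change was 0.81 (adjusted p = 0.722), and without any 1 IgG RIT replicate the adjusted p was 0.0722 to 0.103.

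Among the other surface and junction genes edgeR made no call, while DESeq2 called Cd93 lower after IgG RIT (adjusted p = 0.00829) and Eng higher in CD45 RIT than in IgG RIT (0.0186). Eng measured 23.7 to 34.8 CPM in untreated libraries, 7.97 to 36.5 in TBI, 10.5 to 16.5 in IgG RIT and 59.9 and 15.5 in CD45 RIT. Cd93, a lectin-like receptor shared with progenitors and macrophages, measured 31.2 to 58.2 CPM in untreated libraries, 3.80 to 26.1 in TBI, 1.20 to 15.7 in IgG RIT (adjusted p = 0.0525) and 5.00 and 17.1 in CD45 RIT. All 10 treated libraries thus lay below the 4 untreated ones for Cd93, with no edgeR call. Robo4, a guidance receptor that stabilises vessels, had 79, 61, 35 and 0 counts in untreated libraries, at most 3 in TBI, 0, 0 and 35 in IgG RIT, and 0 and 130 in CD45 RIT. Nos3, the endothelial nitric oxide synthase, reached 98 counts in CD45 RIT replicate 2, its highest, and 0 in replicate 1, with 25.2% of its exon bases shared with an antisense transcript. Clec14a, a lectin of endothelium, went the other way, with 384 counts in CD45 RIT replicate 1 and 1 in replicate 2. Ecscr (a surface regulator of migration), Ptprb (the phosphatase VE-PTP) and Mmrn2 (a matrix protein of vessels) never exceeded 26, 17 and 4 counts.

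**Figure D4:**
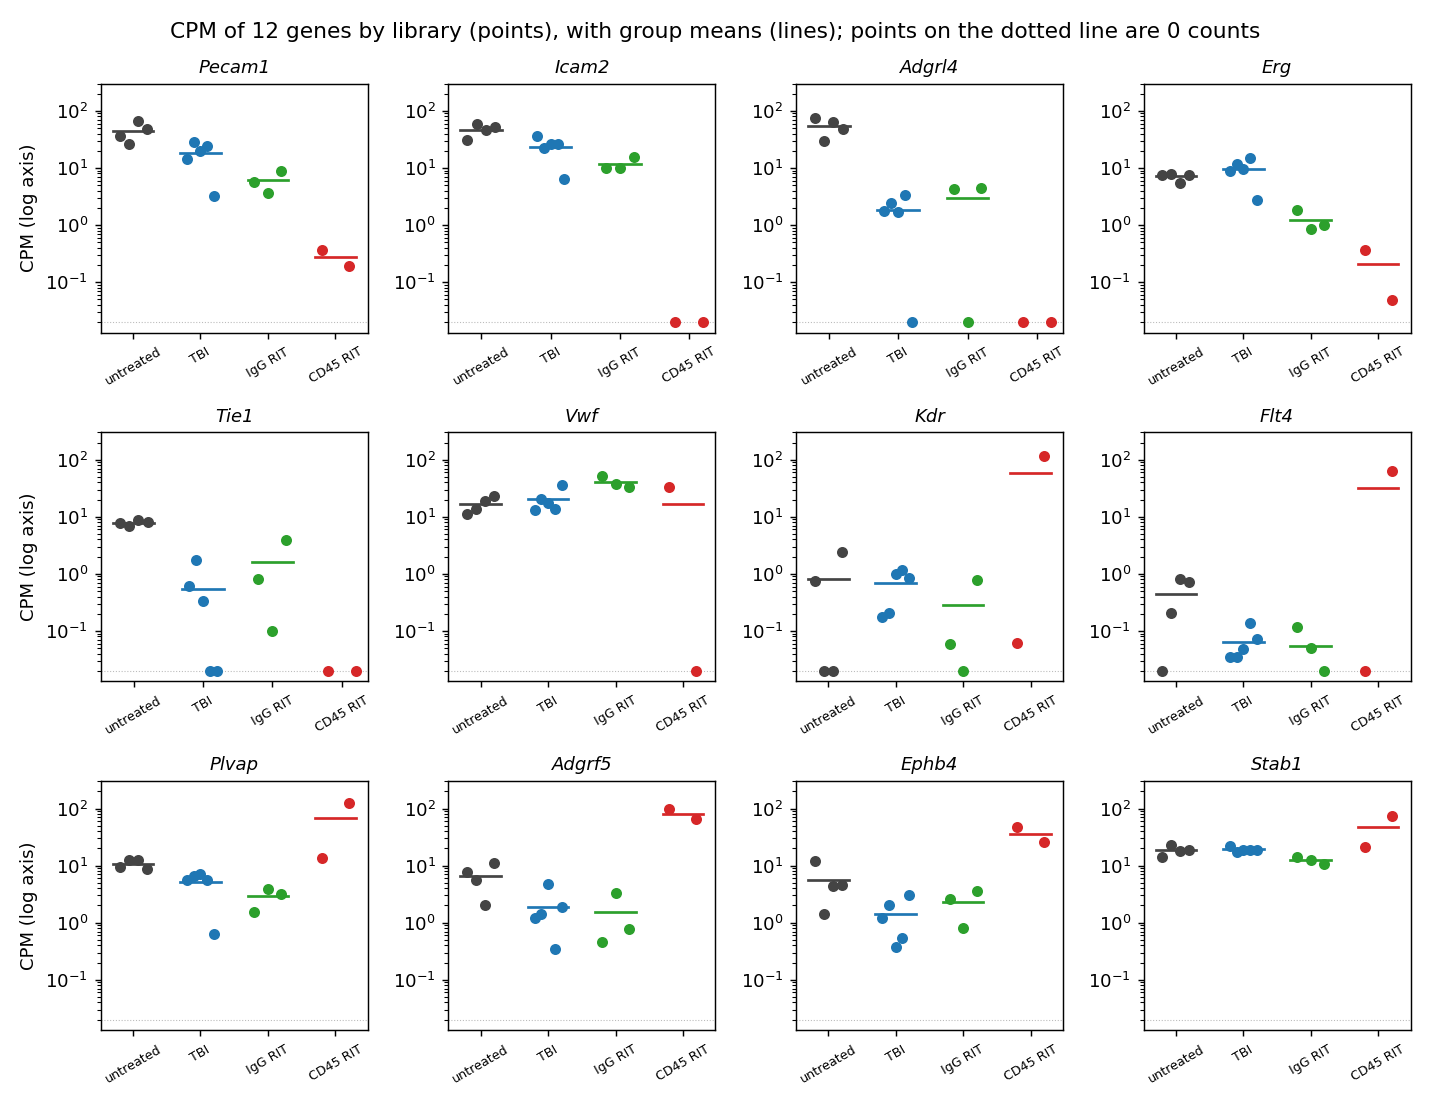
CPM per library (log axis; 1 point per library, line at the group mean, dotted line for libraries at 0 counts) of 12 of the genes. Pecam1 and Icam2 are lowest in the 2 CD45 RIT libraries, Adgrl4 is below the untreated range in all 10 treated libraries, Adgrf5 and Ephb4 are highest in both CD45 RIT libraries, and Kdr and Flt4 are high in 1 library, CD45 RIT replicate 2.

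The VEGF receptors Kdr and Flt4 were high in a single library. Kdr (VEGFR2, the main signalling receptor for VEGF; chr5:75932827-75978458) had 29, 0, 0 and 70 counts in untreated libraries, 5, 6, 21, 35 and 12 in TBI, and 1, 0 and 15 in IgG RIT. In CD45 RIT it had 1 count in replicate 1 and 2390 in replicate 2, which was 115 CPM. Flt4 (VEGFR3, the receptor of lymphatic and sinusoidal endothelium; chr11:49609263-49652739) had 0, 7, 24 and 21 counts in untreated libraries, 1 to 4 in TBI, 2, 1 and 0 in IgG RIT, and 0 and 1306 counts (62.8 CPM) in CD45 RIT. The groups overlapped for both genes against untreated cells, through CD45 RIT replicate 1.

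Both were called higher in CD45 RIT, and both calls rest on that library. For Kdr the log2 fold change was 6.17 against untreated cells (SE 2.15, adjusted p = 0.0431) and 7.64 against IgG RIT (SE 2.61, adjusted p = 0.0365). Without CD45 RIT replicate 2 the values were −3.54 (adjusted p = 0.405) and −2.26 (0.602), and the calls were also lost without untreated replicate 1, 2 or 3 (0.0794 to 0.0852) or IgG RIT replicate 1 or 2 (0.0962 to 0.101). Flt4 was higher than in untreated cells by 6.17 on the same scale (SE 1.76, adjusted p = 0.0186), which was −6.36 (adjusted p = 0.155) without CD45 RIT replicate 2 and lost its call without untreated replicate 2 (0.0517). Against IgG RIT, which held 3 Flt4 counts over its 3 libraries, the ratio of pooled levels was 660 (95% counting interval 225 to 3200, adjusted p = 0.00968).

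The angiopoietin receptor Tek and its relative Tie1 had the opposite pattern. Tie1 (chr4:118471191-118490061) measured 7.91, 6.82, 8.61 and 8.14 CPM in untreated libraries, 0.602, 1.73, 0.334, 0 and 0 in TBI, 0.811, 0.0996 and 3.99 in IgG RIT and 0 in both CD45 RIT libraries. All 10 treated libraries were thus below the 4 untreated ones. After TBI the log2 fold change of Tie1 was not called (adjusted p = 0.12), and after CD45 RIT its level was lower by a factor of at least 48.1 (adjusted p = 0.0205), with an adjusted p of 0.0652 without CD45 RIT replicate 2. Against IgG RIT the factor was at least 9.99 (adjusted p = 0.0454), a call lost without IgG RIT replicate 1 or 3 or either CD45 RIT replicate (0.0574 to 0.124). Tek (Tie2) had 0, 63, 135 and 155 counts in untreated libraries, 10, 34, 0, 19 and 0 in TBI and 0 in all 5 RIT libraries. Its adjusted p by edgeR was 0.0619 after IgG RIT and 0.0747 after CD45 RIT. DESeq2 called Tek lower in both (adjusted p = 0.0103 and 0.0211). Tek and Tie1 are also known in blood stem cells.

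Of the transcription factors, Erg (chr16:95359169-95586593), an ETS factor that maintains both endothelium and blood stem cells, was the one called by edgeR. It measured 7.55, 7.75, 5.54 and 7.59 CPM in untreated libraries and 8.99, 11.8, 9.59, 14.7 and 2.73 in TBI. In IgG RIT it measured 1.80, 0.847 and 0.999 CPM and in CD45 RIT 0.366 and 0.0481, the latter 1 count. TBI libraries other than replicate 6 were above all untreated ones, and RIT libraries were below them. The log2 fold change was −2.55 after IgG RIT (SE 0.66, adjusted p = 0.0228, lost without IgG RIT replicate 2 or 3 at 0.0865 and 0.073) and −5.11 after CD45 RIT (SE 0.93, adjusted p = 0.00153). Fli1, its relative, was at 28.7 to 65.2 CPM in untreated libraries, 22.5 to 26.5 in TBI other than replicate 6 at 3.80, 0.349 to 18.0 in IgG RIT, and 8.66 and 0 in CD45 RIT, with no call by edgeR and a lower level after CD45 RIT by DESeq2. Sox18 reached 31 counts in untreated replicate 1 and at most 7 elsewhere.

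Of the sinusoidal and venous genes, Plvap, Stab1, Ephb4 and Aplnr were called higher in CD45 RIT cells than in untreated cells. Plvap (chr8:71497765-71511752) measured 9.43, 12.7, 12.3 and 8.70 CPM in untreated libraries, 5.56, 6.67, 7.01, 5.49 and 0.646 in TBI, 1.51, 3.93 and 3.21 in IgG RIT and 13.6 and 123 in CD45 RIT. Both CD45 RIT libraries were above the other 12, replicate 1 only slightly. The log2 fold change was 2.67 against untreated cells (SE 0.81, adjusted p = 0.0247) and 4.57 against IgG RIT (SE 0.95, adjusted p = 0.00294). Without CD45 RIT replicate 2 these were 0.38 (adjusted p = 0.725) and 2.09 (0.0573), and without untreated replicate 1 or 4 the first had an adjusted p of 0.0529 and 0.058.

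Stab1 (stabilin-1, a scavenger receptor of sinusoids and macrophages; chr14:31139013-31168641) varied little across the untreated, TBI and IgG RIT libraries, at 14 to 23.4, 17.6 to 22.2 and 10.6 to 14 CPM. CD45 RIT stood at 20.8 and 73.6 CPM, of which the lower value lay within the untreated range. The log2 fold change against untreated cells was 1.34 (SE 0.41, adjusted p = 0.0256), which was 0.20 (adjusted p = 0.616) without CD45 RIT replicate 2, and without untreated replicate 1, 3 or 4 the adjusted p was 0.0501 to 0.0589. Stab2, a scavenger receptor more restricted to sinusoids, had 70, 1, 22 and 0 counts in untreated libraries, 14, 1, 1, 14 and 0 in TBI and 0 in all RIT libraries, with no call. Of the 2 stabilins, macrophages are known to make Stab1.

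Ephb4, the venous receptor for ephrin-B2 that erythroid progenitors also make, measured 11.9, 1.44, 4.37 and 4.54 CPM in untreated libraries, 0.382 to 3.09 in TBI, 0.797 to 3.57 in IgG RIT and 47.3 and 25.4 in CD45 RIT. It was higher than in untreated cells (log2 fold change 2.71, SE 0.88, adjusted p = 0.0333), and the call was lost without untreated replicate 2, 3 or 4 or CD45 RIT replicate 1 (0.0687 to 0.0899). Mmrn1 (multimerin-1, of lymphatic vessels and platelets) measured 17.0, 0.658, 22.6 and 16.8 CPM in untreated libraries, 5.10 to 24.7 in TBI, 0, 0 and 3.94 in IgG RIT, and 32 and 57.2 in CD45 RIT, above the other 12 libraries. It was higher than in IgG RIT (5.08, SE 1.75, adjusted p = 0.0378), a call lost without IgG RIT replicate 1 or 2 or CD45 RIT replicate 2 (0.0603 to 0.0742). Without IgG RIT replicate 3 the IgG RIT group held 0 Mmrn1 counts. Sele (E-selectin, an inducible adhesion molecule) had 14 counts in untreated replicate 3, 7 in TBI replicate 1 and 0 in the other 12 libraries.

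Aplnr, the apelin receptor of venous endothelium, and Apln, its ligand from tip cells, appeared in the same library. Aplnr had 2 counts in untreated replicate 1, 10 in TBI replicate 1, 1 in IgG RIT replicate 2, 1 in CD45 RIT replicate 1 and 261 in CD45 RIT replicate 2. It passed the filter on low counts only through CD45 RIT replicate 2 and TBI replicate 1, so its calls draw on the library that let it in. Against untreated cells the ratio of pooled levels was 459 (95% counting interval 126 to 3810, adjusted p = 0.00993), and against IgG RIT 397 (70.7 to 15700, adjusted p = 0.021, and 0.0541 to 0.0643 without any 1 IgG RIT replicate). Apln had 66 counts in untreated replicate 3, 5 in TBI replicate 1 and 700 in CD45 RIT replicate 2, with 0 in the other 11 libraries. CD45 RIT replicate 2 and untreated replicate 3 alone took Apln past the filter. Apln was at least 105-fold higher in CD45 RIT than in IgG RIT (adjusted p = 0.0447), a call lost without any 1 IgG RIT replicate (0.0922 to 0.0965). Without CD45 RIT replicate 2 both genes were at 1 count or 0 in the CD45 RIT group.

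Of the arterial genes, Notch1 (a receptor of arterial fate that stem and stromal cells also make; chr2:26457903-26516663) measured 15.5, 21.7, 20.5 and 16.5 CPM in untreated libraries, 7.50, 13.5, 8.16, 7.63 and 1.51 in TBI, 0.116, 2.59 and 1.89 in IgG RIT and 32.2 and 50.7 in CD45 RIT. The 4 groups did not overlap apart from TBI replicate 6, which lay within the IgG RIT range. It fell after IgG RIT (log2 fold change −3.59, SE 0.87, adjusted p = 0.0173), was higher in CD45 RIT than in IgG RIT (4.75, SE 0.98, adjusted p = 0.0027), and was not called against untreated cells (1.16, adjusted p = 0.282). Both calls held in every fit that left out 1 library. Notch4, an endothelial Notch receptor, measured 2.7, 2.21, 1.47 and 0.797 CPM in untreated libraries, 0.382 to 3.29 in TBI, 0.116, 0.349 and 0.315 in IgG RIT and 0.244 and 0.577 in CD45 RIT. Its call after IgG RIT (log2 fold change −2.76, SE 0.86, adjusted p = 0.0459) was lost on leaving out any of the 7 libraries compared (0.0515 to 0.147).

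The remaining arterial genes were low. Gja5 (connexin 40, of arterial gap junctions) measured 2.87 to 4.26 CPM in untreated libraries, 2.37 to 5.15 in TBI, 1.39 to 2.52 in IgG RIT and 1.04 and 0 in CD45 RIT, with IgG RIT and CD45 RIT below untreated cells but not called by edgeR (adjusted p = 0.479 and 0.064). Gja4 (connexin 37) ranged from 0 to 90 counts with no order by group. Efnb2 (ephrin-B2, the arterial partner of Ephb4) had 31 counts in untreated replicate 3 and at most 5 elsewhere, and Dll4, the Notch ligand of tip cells, reached 4 counts in TBI replicate 5 and was at 0 in all untreated libraries.

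The 2 CD45 RIT libraries differed from each other more than the genes' group means show. In replicate 2, 11 genes had their highest CPM of all 14 libraries (Kdr, Flt4, Esam, Stab1, Robo4, Mmrn1, Plvap, Nos3, Notch1, Apln and Aplnr), and in replicate 1 there were 5 (Eng, Ephb4, Ramp2, Adgrf5 and Clec14a). Both CD45 RIT libraries were above the other 12 for 6 genes: Mmrn1, Plvap, Ephb4, Notch1, Ramp2 and Adgrf5. In 7 genes replicate 1 was at 3 counts or fewer and replicate 2 above (Kdr, Flt4, Sox18, Robo4, Nos3, Apln and Aplnr), and in 8 the reverse held (Vwf, Erg, Fli1, Ptprb, Gja4, Gja5, Calcrl and Clec14a). None of these counts was made over all genes. They describe the 45 genes only and do not set them apart from other genes. The genes that led the sum of the 45 genes also differed. In replicate 1 the largest shares were 21.4% for Adgrf5, 14.1% for Ramp2 and 13.2% for Eng, and in replicate 2 they were 16.1% for Plvap, 15.1% for Kdr and 9.64% for Stab1. In IgG RIT replicate 1, by comparison, Vwf made up 30.3% and Calcrl 20.8% of the sum, and in untreated replicate 1 Adgrl4 made up 16.9%.

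Beyond the 45 genes, 46 further genes of vessel growth, Notch signalling, endothelial and blood transcription factors and other endothelial functions were followed, and 43 were tested. After TBI 2 were higher and 8 lower, after IgG RIT 2 and 9, and after CD45 RIT 16 and 2, 23.3%, 25.6% and 41.9% of those tested, against 4.31%, 16.4% and 33.1% of all tested genes. Against IgG RIT 24 were higher and 4 lower in CD45 RIT cells (65.1%, against 37.7% of all tested genes). These genes, too, were chosen with earlier results of these data known. Among the 10 ligands and co-receptors, which act on the receptors described above, 0 were higher and 3 lower after TBI, 0 and 3 after IgG RIT, and 6 and 0 after CD45 RIT. Of all tested genes 0.921% were higher and 3.38% lower after TBI, 5.75% and 10.7% after IgG RIT, and 14.5% and 18.6% after CD45 RIT.

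Vegfc, the ligand of Flt4, measured 6.84, 21.7, 6.88 and 7.73 CPM in untreated libraries, 0.429 to 2.28 in TBI, 5.50 to 6.43 in IgG RIT and 290 and 355 in CD45 RIT. Against untreated cells it changed by a log2 value of −3.03 after TBI (SE 0.48, adjusted p = 0.00493) and 4.90 after CD45 RIT (SE 0.60, adjusted p = 1.09e-04). Unlike Flt4, it was high in both CD45 RIT libraries. Angpt1, the ligand of Tek, measured 39.5 to 77.5 CPM in untreated libraries, 1.58 to 9.79 in TBI and 304 and 277 in CD45 RIT. It was lower after TBI by a log2 value of −3.70 (SE 0.53, adjusted p = 0.00299) and higher after CD45 RIT by 2.37 (SE 0.61, adjusted p = 0.0113), while Tek itself was at 0 counts in CD45 RIT. After IgG RIT Angpt1 was lower as well (−3.89, SE 0.66, adjusted p = 0.0038). Vegfa, the ligand of Kdr, was lower after IgG RIT (−1.97, SE 0.40, adjusted p = 0.00759) and higher after CD45 RIT by 2.76 (SE 0.41, adjusted p = 4.05e-04). The co-receptor Nrp1 was lower after TBI (−2.66, SE 0.34, adjusted p = 0.00187) and after IgG RIT (−1.26, SE 0.39, adjusted p = 0.0454, lost in 6 of 7 fits that left out 1 library, at up to 0.157). After CD45 RIT the co-receptors were higher, Nrp1 (4.96, SE 0.43, adjusted p = 1.21e-05) and Nrp2 (4.39, SE 1.12, adjusted p = 0.0108). Stromal cells of the marrow are known to make Angpt1 and Vegfa, and the stromal marker sums given above were highest in the same 2 libraries, but their part in these levels was not tested. These genes were named after their values were seen.

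Podxl (podocalyxin, a sialomucin of endothelium and of some blood cells) was at 0 counts in all 4 untreated libraries and at 63.1, 34.6, 60.7, 53.6 and 24.2 CPM in TBI, at least 507-fold higher (adjusted p = 0.00136). In IgG RIT it measured 1.91, 1.94 and 4.99 CPM, at least 31.7-fold higher than in untreated cells (adjusted p = 0.00249), and in CD45 RIT it had 6 and 0 counts. All 5 TBI libraries, replicate 6 included, were thus above every other library. Podxl too was named after its values were seen.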

How the data were processed

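RNA from sorted marrow cells was amplified with SMART-Seq v4 and made into libraries with Nextera XT, per the labels' protocols. The authors deposited whole-number counts per gene; per the submitters' processing notes STAR 2.7.7a, FastQC 0.11.9 and edgeR 3.36.0 were used and the build was hg38, although identifiers and coordinates are those of the mouse: 54587 of 55335 identifiers matched GENCODE M21, all with the same GRCm38 coordinates. The counting tool and strand setting are not given in the sources used here, so overlapping and antisense genes could not be separated. Without molecular identifiers, amplified copies count as reads.

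In R 4.3.3, edgeR 4.0.16 (filterByExpr with minimum count 10 and minimum total 15, TMM, robust quasi-likelihood fit of 14 libraries with 1 coefficient per group) gave log2 fold changes, SE (size divided by the square root of F) and Benjamini-Hochberg adjusted p, called under 0.05. CPM of single genes used TMM-scaled totals and sums of genes used total counts. TBI replicate 2 was not analysed here. One stem cell marker is not reported here and was left out of its list. Groups at 0 counts gave bounds against 3 counts per library, and groups with 1 to 3 counts gave pooled ratios with exact 95% intervals. The procedure was tested on simulated data. Alternatives were other scaling (RLE factors, none), no filter, DESeq2 1.42.0, fewer libraries and a replicate block.

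The genes and lists were chosen with earlier results of these data known. Fold changes are given for every one of the 45 genes that was called, at most the 15 with the largest size in a comparison, and for Pecam1. In CD45 RIT against IgG RIT this limit left out Ephb4 and Stab1, called higher, and Erg, called lower.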

Additional observations from a re-analysis of the deposited data

Results flagged for a closer look

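Within groups of 4 or 5 libraries, a library was looked for whose distance to its nearest neighbour took up most of the group's range (Dixon's 95% critical value). This held in 15 of 70 groups of values, where chance gives about 1 in 20. Genes with nearly all libraries at 0 are among them.

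In the untreated group, Sox18 was high in replicate 1 (0.812 CPM against at most 0.134 in the others) and Nos3 low in it (0.393 against 1.0 to 1.07). Erg was low in untreated replicate 3 (5.54 CPM against 7.55 to 7.75), and Apln was present in that library alone of the group (2.2 CPM). Aplnr was present in untreated replicate 1 alone of the group, at 0.0524 CPM, which was 2 counts.

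In the TBI group, replicate 6 was lowest in Fli1 (3.8 CPM against 22.5 to 26.5), Plvap (0.646 against 5.49 to 7.01), Cd93 (3.8 against 20.3 to 26.1) and the summed level of the 45 genes (120 against 290 to 336), and highest in Clec14a (1.08 against at most 0.305). Gja4 was highest in TBI replicate 1 (2.69 CPM), Notch4 in TBI replicate 3 (3.29 CPM) and Calcrl in TBI replicate 4 (18.1 CPM). Apln (0.177 CPM) and Aplnr (0.354 CPM) were present in TBI replicate 1 alone of the group.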

How the results depend on the processing

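Of the fold changes named in the report, 59 kept direction and call under DESeq2 and 0 lost it. With RLE factors 56 kept and 4 lost the call, with no scaling factors 53 and 7, with no filter 49 and 11, and with only the libraries of the groups compared 35 and 25. Scaling moved the median log2 fold change of all genes by 0.03 to 0.24 (RLE) and by −0.12 to −0.69 (no factors) over the 4 comparisons. With no factors 10 of the 45 genes were called after IgG RIT, and over all genes 735 were higher and 4326 lower in place of 1236 and 2300. With RLE factors the splits over all genes were 1549 higher and 1766 lower after IgG RIT and 3853 and 3451 after CD45 RIT.

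DESeq2 called 4 of the 45 genes and 2486 of all genes after TBI, and 5950 of all genes after IgG RIT. Fitted with only the 2 groups compared, 4, 11, 7 and 1 of the 45 genes were called after TBI, IgG RIT, CD45 RIT and CD45 RIT against IgG RIT, and 3234, 6457, 3850 and 1141 of all genes. The libraries numbered under 10 gave 9 of the 45 genes and 4043 of all genes after TBI. The cause of these differences was not tested.

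The labels do not say whether same-numbered libraries were paired. Correlations of the deviations of same-numbered libraries were −0.0147 to 0.139. Some libraries correlated best with their own number and others did not, so these values do not decide whether the numbers pair libraries. With the replicate block 0 of the 45 genes were called after TBI by edgeR (9 had an unadjusted p under 0.05 without the block, and DESeq2 called 4), 7 after CD45 RIT and 9 in CD45 RIT against IgG RIT, and of all genes 38 after TBI, 2063 after IgG RIT, 4062 after CD45 RIT and 5098 in CD45 RIT against IgG RIT. Of the fold changes followed, 33 kept their call and 27 lost it.

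Leaving out 1 library at a time gave 0 to 1 of the 45 genes called after TBI, 1 to 5 after IgG RIT, 10 to 18 after CD45 RIT and 9 to 20 in CD45 RIT against IgG RIT. Over all genes the ranges were 410 to 827, 1769 to 2535, 5839 to 11327 and 6354 to 12031. Without CD45 RIT replicate 2, the log2 fold change of Kdr turned to −3.54 against untreated cells and −2.26 against IgG RIT, and that of Flt4 to −6.36 against untreated cells, since replicate 1 held 1 and 0 counts of these genes. Their highest values on leaving out 1 library were 7.77 for Kdr (untreated replicate 4) and 7.18 for Flt4 (CD45 RIT replicate 1) against untreated cells.

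The summed level of the 45 genes ranged over 527 to 564 CPM in untreated, 267 to 321 in TBI, 127 to 148 in IgG RIT and 320 to 592 in CD45 RIT libraries when 1 library was left out. On TMM-scaled library sizes it was 458 in untreated, 250 in TBI, 166 in IgG RIT and 609 in CD45 RIT libraries, which places CD45 RIT above untreated cells and not below. Over the 21 mainly endothelial genes it was 35.1, 16.6, 9.05 and 198 on the total count, the last led by few of them. Depth limits the 11 untested genes, of which none can be called absent below 0.0786 to 0.215 CPM, the worth of 3 counts on TMM-scaled sizes.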
